A study of Mus musculus with 100 samples.

Results

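Induced pluripotent stem cells (iPSCs) of 2 male mouse lines, M KSR3 and M KSR5, were compared by RNA sequencing. Each line grew from 1 picked colony, so each stands for 1 clone. Both were made in the same medium, with Knockout Serum Replacement (KSR) and LIF, from male F1 hybrid embryonic fibroblasts (MEFs) of an i4F-BL6 mother and a CAST father. All cells of both lines carry the doxycycline-inducible reprogramming cassette and the rtTA transgene of that mother, and doxycycline was withdrawn after reprogramming. The libraries of the 2 lines were identified from the labels, 3 for each, which are 6 of the 18 RNA-seq libraries among 100 samples of all kinds. A gene was tested where its deposited value was above 0 (log2 RPM, where RPM is reads scaled to the depth of the library) in at least 3 of the 6 libraries, which held for 13006 of the 25965 genes.

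Pluripotent cells move along a continuum. Naive cells resemble the early epiblast, formative and primed cells have moved towards gastrulation, and the primitive endoderm is the sister lineage that lines the yolk sac. Imprinted genes are expressed from only the maternal or only the paternal copy, because DNA methylation laid down in the germline marks one of them. In these hybrids the parental copies can be told apart at single nucleotide polymorphisms (SNPs), with BL6 bases maternal and CAST bases paternal, so the maternal share of the reads that cover a SNP is a second readout beside the level of a gene.

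Reads counted on genes numbered 14832220 to 17259678 per library, and 1 read was worth between -4.29 and -4.10 on the log2 RPM scale. Pearson's r of the log2 levels across the tested genes was 0.973 to 0.990 between M KSR3 libraries, 0.95 to 0.979 between M KSR5 libraries and 0.924 to 0.949 between the lines. Replicate 3 of M KSR5 stood apart from its own line: the median SD over genes was 0.26 in M KSR5, and 0.18 without that library, as it was in M KSR3. The 16 fibroblast markers examined summed to 246.6 RPM in M KSR5 replicate 3, to between 33.8 and 78.2 RPM in M KSR3, and to 24.3 and 38.6 RPM in the other M KSR5 libraries, against 30227 to 43331 RPM in the female MEF libraries. Counts over all genes and over gene lists are therefore also given without it. The labels call the libraries biological replicates, and p-values measure the spread between these libraries of 1 clone each.

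Of the 13006 genes, 1851 (14.2%) differed between the lines (limma, Benjamini-Hochberg adjusted p below 0.05), 1015 higher in M KSR3 (7.80%) and 836 lower (6.43%). Without M KSR5 replicate 3 the number was 2837 (21.8%), with 1564 higher (12.0%) and 1273 lower (9.79%), and 1775 genes (13.6%) passed both times in the same direction. Leaving out another library gave 1624, 534 and 532 (M KSR3 replicates 1, 2 and 3) or 1214 and 710 (M KSR5 replicates 1 and 2). The calls were unequally spread over the genome. Chromosomes 1, 8, 11 and 15 held 858 of their 3039 tested genes among them (28.2%), 640 higher (21.1%) and 218 lower (7.17%) in M KSR3, whereas the other chromosomes held 993 of 9967 (9.96%), 375 higher (3.76%) and 618 lower (6.20%). Without M KSR5 replicate 3 these counts were 1157 of 3039 (38.1%, with 26.4% higher and 11.7% lower) and 1680 of 9967 (16.9%, with 7.66% higher and 9.20% lower). In 2429 genes (18.7%) all M KSR3 libraries lay above all M KSR5 libraries, and in 2009 (15.4%) they lay below them. Scaling each library to its other autosomes moved the split of all calls to 1423 higher and 680 lower, and centring each chromosome moved it to 460 higher and 774 lower. The split of 375 higher and 618 lower on the other chromosomes became 587 higher and 510 lower when libraries were scaled to their other autosomes.

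Whole chromosomes differed in level and in allelic share. On chromosome 1 the median gene was 0.54 log2 higher in M KSR3, and 267 of 722 tested genes were called higher against 17 lower. With each gene centred on its mean over the 6 libraries and the median of the other autosomes set to 0, the median levels of chromosome 1 were 0.30, 0.26 and 0.26 in the M KSR3 libraries and -0.25, -0.30 and -0.24 in the M KSR5 libraries. The maternal share of its SNP reads was 67.97% ± 0.13 in M KSR3 against 51.61% ± 0.58 for M KSR5 (SD, n = 3 each). In terms of the reads of the other autosomes, the maternal copy of chromosome 1 gave 1.94 times as many reads in M KSR3 as in M KSR5 and the paternal copy 0.98 times. So the level difference of chromosome 1 lay in maternal reads. The lines did not overlap in either measure on this chromosome or on chromosomes 8, 11 and 15, and a two-sided exact permutation test of 3 libraries against 3 gave p = 0.1 for each, which is the smallest it can give. Chromosomes 2, 10 and X did not overlap in either measure either, with the same p = 0.1 in this permutation test. Their differences were small, at 0.04, -0.03 and 0.08 log2 for the median and -0.56, -0.94 and -0.18 percentage points for the share. Both lines are male with X from the mother, so the X share does not compare 2 parental copies. The p of 0.1 in this permutation test thus does not set chromosomes 1, 8, 11 and 15 apart.

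Chromosome 11 showed the same kind of difference over a stretch of its length. Over the chromosome, 265 of 1094 genes were higher in M KSR3 and 69 lower, with a median difference of 0.30 log2 and maternal shares of 61.71% ± 0.10 and 51.17% ± 0.13 (SD, n = 3 each). Its genes were then divided by position into 10 groups of equal size. In the 5th to 9th groups (chr11:70644196-116168166, GRCm38), 218 of 547 genes were higher in M KSR3 and 5 lower, with a median difference of 0.57 log2. The maternal share there was 67.34% ± 0.29 in M KSR3 against 50.84% ± 0.48 for M KSR5 (SD, n = 3 each), and the maternal copy gave 1.98 times as many reads in M KSR3. The remaining groups together held 47 higher and 64 lower genes, and their median difference was about 0. They were unlike each other. The 4th group (chr11:62316426-70614483) had 30 higher and 5 lower genes, a median difference of 0.39 log2 and maternal shares of 65.5% to 67.0% in M KSR3. The 3rd (chr11:52004221-62328451) had 7 higher and 30 lower genes, a median difference of -0.19 log2 and maternal shares of 48.8% to 48.9% in M KSR3 and 51.8% to 53% in M KSR5, while the 10th, at the distal end, had 50.1% to 51.0%.

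On chromosome 8, M KSR3 was again maternal-rich, at 65.27% ± 0.32 against 50.26% ± 1.75 in M KSR5 (SD, n = 3 each). Its median difference was 0.29 log2, with 99 of 716 genes higher and 20 lower, and it fell to 0.18 without M KSR5 replicate 3. On the same centred scale, the median levels of the chromosome were 0.15 in each M KSR3 library and -0.04, -0.02 and -0.37 in the M KSR5 libraries. For each 1000 SNP reads of the other autosomes, M KSR5 replicate 3 had 37.8 maternal and 34.5 paternal reads of chromosome 8, M KSR5 replicate 1 had 40.9 and 42.7, and M KSR5 replicate 2 had 43.2 and 43.8. The paternal reads of replicate 3 were at the level of M KSR3, which had 34.5 to 35.9, whereas those of replicates 1 and 2 were above it.

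Chromosome 15 went the opposite way. M KSR5 had the higher level there, by 0.37 log2 at the median gene (112 of 507 genes lower in M KSR3 and 9 higher) and by 0.48 without its replicate 3. M KSR3 was 51.41% ± 0.41 maternal (SD, n = 3) against 62.06% ± 5.26 (SD, n = 3) for M KSR5, whose libraries were 65.1%, 65.1% and 56.0%. Replicate 3 thus lay between the lines in share, with 35.3 maternal reads per 1000 of the other autosomes against 51.4 and 50.2 in the other M KSR5 libraries and 29.3 to 29.6 in M KSR3. The other 15 autosomes had median differences between -0.09 and 0.07 log2 and maternal shares of 50.5% to 53.5% in M KSR3 and 50.7% to 54.0% in M KSR5. Wilson 95% intervals of a chromosome's share in 1 library reached 0.38 percentage points to either side, and cover counting error only.

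**Figure D1:**
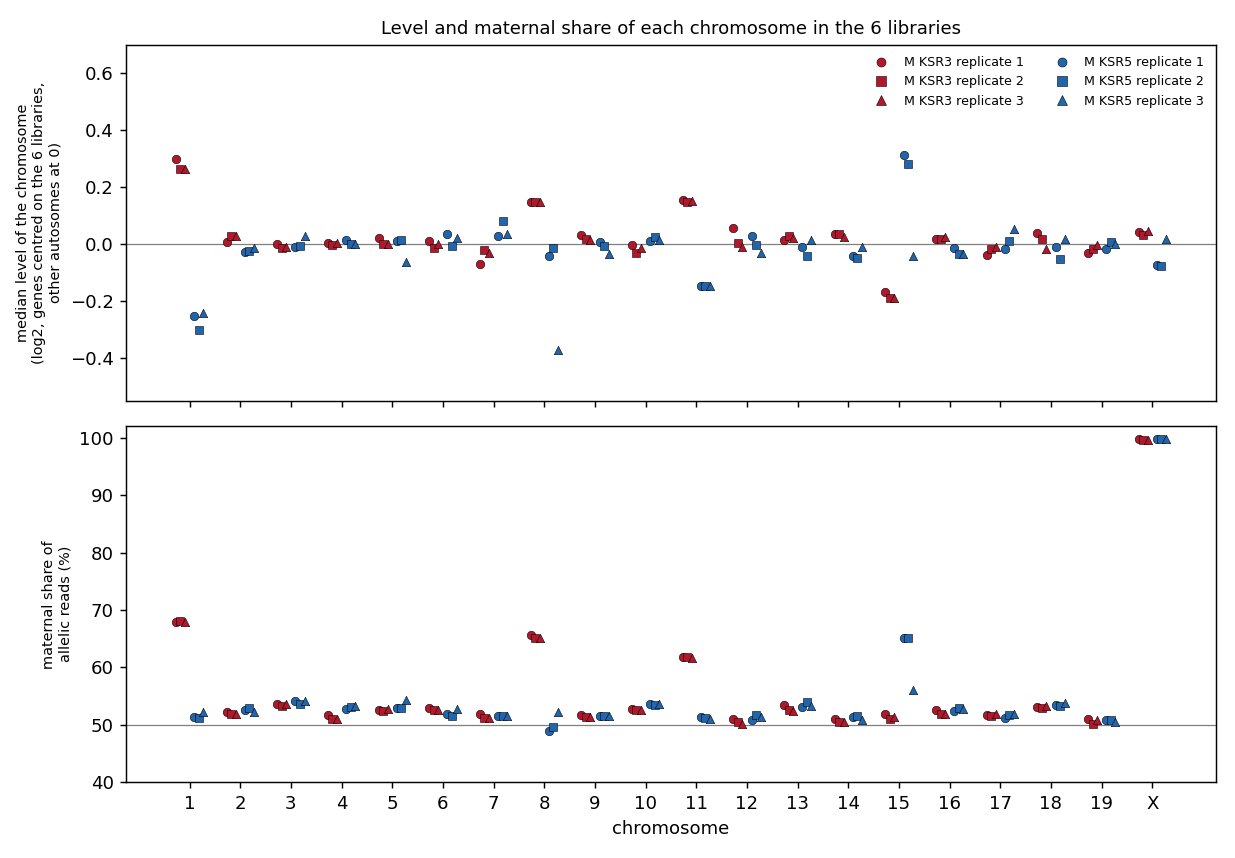
Median level of each chromosome (upper panel, log2, with each gene centred on its mean over the 6 libraries and the other autosomes at 0) and maternal share of SNP reads (lower panel, %), with 1 point for each library (M KSR3 red, M KSR5 blue, the symbol giving the replicate). M KSR3 lay above M KSR5 in both panels on chromosomes 1, 8 and 11, M KSR5 lay above M KSR3 on chromosome 15, and M KSR5 replicate 3 was at -0.37 on chromosome 8 and at 56.0% on chromosome 15.

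**Figure D2:**
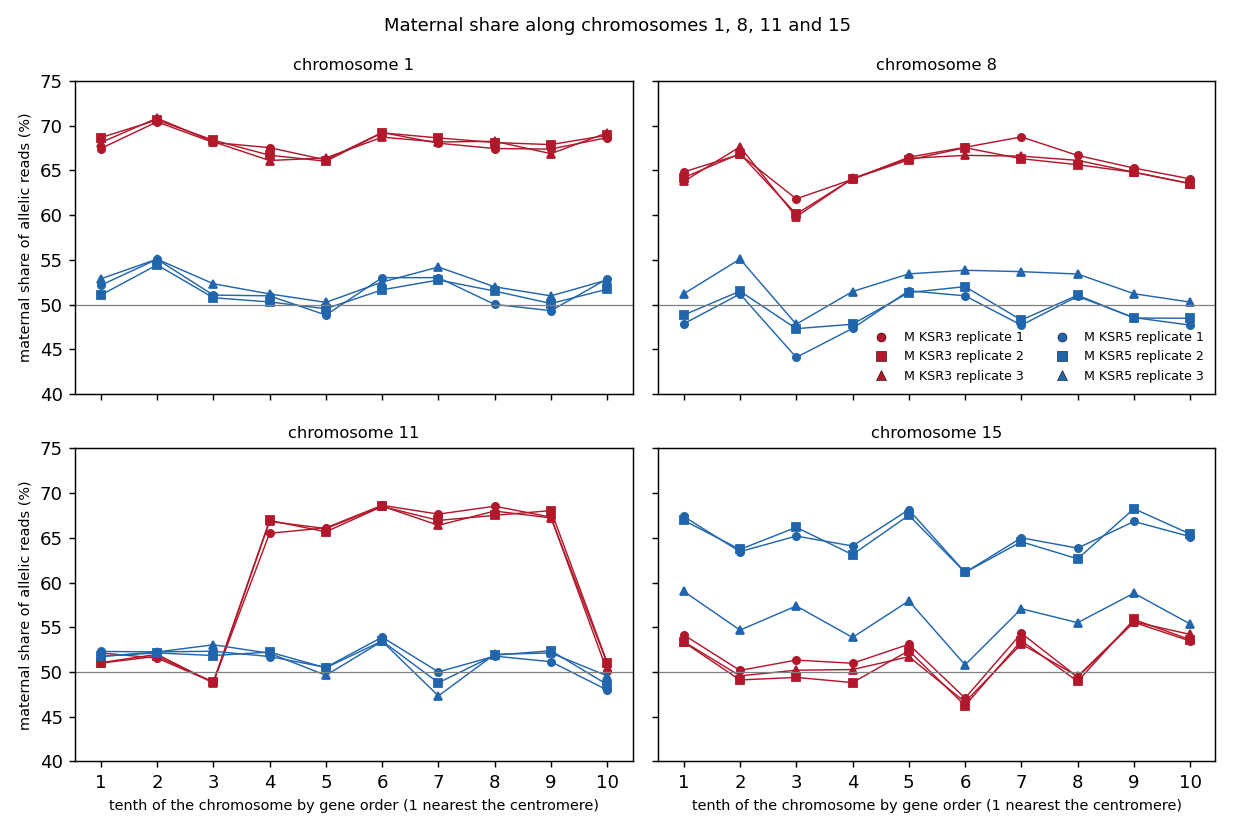
Maternal share of SNP reads (%) along chromosomes 1, 8, 11 and 15, with the genes of each chromosome divided by position into 10 groups of equal size and 1 line for each library. The lines were apart along the whole of chromosomes 1, 8 and 15. On chromosome 11 M KSR3 was at 65.5% or more from the 4th to the 9th group and between 48.8% and 52.1% in the others.

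Some genes on these chromosomes differed by more than the median shift of their chromosome, or against it. Each was tested against no difference, not against that shift. On chromosome 1, Dock10, a guanine nucleotide exchange factor, was at 1.73, 2.27 and 2.52 log2 RPM in M KSR3 and at -2.59, -2.57 and 0.41 in M KSR5, and the Wnt ligand gene Wnt6 differed by 3.45 log2 (SE 0.92, limma adjusted p = 0.0366). Against the chromosome, the iron exporter gene Slc40a1 and the LIM domain gene Fhl2 were lower in M KSR3 by 2.08 and 2.04 log2. On chromosome 8, the amino acid transporter gene Slc7a2 and the basement membrane collagen gene Col4a1 were each 2.05 log2 higher, whereas Trim67 and the iodide transporter gene Slc5a5 were lower by 2.62 and 2.13. On chromosome 11, Xaf1 was higher (2.52), and the interferon-inducible GTPase gene Irgm1 and the imprinted Grb10 were both lower by 2.62. On chromosome 15, Ly6k (2.44) and Dab2 (1.53) were higher in M KSR3. Enpp2, which encodes the secreted enzyme autotaxin, was at -4.26, -2.70 and -1.0 log2 RPM in M KSR3 and at 3.31, 2.92 and 2.68 in M KSR5, a difference of -5.62 log2 (SE 0.74, limma adjusted p = 0.00284). Enpp2 had 0, 3 and 9 reads in M KSR3, so it passed the level filter through M KSR5 alone and had to differ. The size of its difference depends in part on the value at which 0 reads is held. The Wnt ligand gene Wnt7b was lower by 3.45 log2. These genes were named by a rule that required them to pass with and without M KSR5 replicate 3 and not to overlap between the lines.

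On the other chromosomes, 5 of the 10 genes that were higher in M KSR3 by the most under the same rule belonged to a single X-linked family. Asz1, which encodes a protein of the germ cell piRNA pathway, had 94, 275 and 237 reads in M KSR3 and 1, 7 and 1 in M KSR5. On the log2 RPM scale this was 2.45, 3.82 and 3.72 against -4.18, -1.35 and -4.11, a difference of 6.54 (SE 0.79, limma adjusted p = 0.00237). M KSR5 was near the limit of detection for Asz1, whereas every M KSR3 library was far above it. Xlr5a, Xlr3a, Xlr4a, Xlr4b and Xlr5c, members of the X-linked lymphocyte-regulated family, were higher by 5.86, 5.64, 5.63, 5.35 and 4.49 log2. Pramel6 (4.99), Nostrin (4.18), the mRNA export factor gene Nxf3 (4.05) and the water channel gene Aqp8 (4.01) completed the 10 largest increases. Asz1, Xlr5a, Xlr4a, Xlr4b, Xlr5c, Pramel6 and Nxf3 were above 0 (log2 RPM) in M KSR3 alone, so they passed the level filter through that line and had to differ. Aqp8 varied within its lines, since M KSR5 was at -2.59, -0.35 and 2.50 log2 RPM and M KSR3 at 3.10, 4.05 and 4.44.

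The largest decreases included the developmental gene Vrtn. Vrtn, known for its part in vertebral number, was at -1.78, -1.48 and -0.71 log2 RPM in M KSR3 and at 2.95, 3.78 and 3.14 in M KSR5, lower by 4.61 log2 (SE 0.42, limma adjusted p = 0.000991). It was well detected in every M KSR5 library. The interferon-inducible GTPase gene Gbp2 (-3.95), the growth factor gene Fgf15 (-3.85), the peptide hormone gene Adm (-3.55), the neuronal gene Atcay (-3.39), the imprinted Phlda2 (-3.19), the zinc finger gene Insm1 (-3.15), the semaphorin gene Sema6a (-3.13) and Radil (-3.01) were also among them. Vrtn, Gbp2, Fgf15 and Atcay were above 0 (log2 RPM) in M KSR5 alone, so they passed the level filter through that line and had to differ. Lines F KSR2 and F KSR4, female and made in the same medium, had a mean nearer to M KSR5 than to M KSR3 for 265 of the 325 autosomal genes higher in M KSR3 and for 393 of the 581 lower ones. The same count was not made for genes that were not called, so these numbers have no background.

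The Xlr, Nxf, Rhox, Mage and Pramel families were looked at as wholes only after values of their members had been seen. Their background is the 3.76% higher among tested genes outside chromosomes 1, 8, 11 and 15. All 9 tested Xlr members were higher, and 6 of them were above 0 (log2 RPM) in M KSR3 alone. These 6 passed the level filter through that line and had to differ. Among the others, Xlr3c was at 3.67, 4.35 and 4.47 log2 RPM in M KSR3 and at 0.78, 0.93 and 0.89 in M KSR5. Nxf2, Nxf3 and Nxf7, the tested X-linked members of another family, were also higher, and 2 of these 3 were likewise above 0 in M KSR3 alone. Of 6 tested genes of the Rhox homeobox cluster, Rhox1, Rhox5, Rhox10 and Rhox13 were higher and Rhox9 was lower. In this cluster 1 of the 6 was above 0 in M KSR3 alone. Members of the Xlr, Nxf and Rhox families are near copies of each other, so how reads were divided among them is uncertain. In the Mage family 2 of 8 tested genes were higher, and in the Pramel family 2 of 5, with none lower in either. Each of these had 2 genes above 0 in M KSR3 alone.

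Germline genes as a list were also higher in M KSR3. Of 15 tested genes with roles in germ cells, 8 were higher and none lower, all 8 of them among the 13 that lie outside chromosomes 1, 8, 11 and 15, against 3.76% of all tested genes outside them. One of the 15, Asz1, passed the level filter through M KSR3 alone. Their promoters were read from RefSeq (GRCm38.p6) as 250 bases before and 50 after the start of the gene. Genes of this kind are known to be held silent in somatic cells by methylation of CpG-rich promoters. The promoters of the 4 genes with the largest differences on autosomes are given below, with CpG dinucleotides in capitals: Asz1 (chr6:18109012-18109311, minus strand, 17 CpGs), Dazl (chr17:50293571-50293870, minus strand, 28), Sycp1 (chr3:102936051-102936350, minus strand, 21) and Slc25a31 (chr3:40708621-40708920, plus strand, 22).
Asz1: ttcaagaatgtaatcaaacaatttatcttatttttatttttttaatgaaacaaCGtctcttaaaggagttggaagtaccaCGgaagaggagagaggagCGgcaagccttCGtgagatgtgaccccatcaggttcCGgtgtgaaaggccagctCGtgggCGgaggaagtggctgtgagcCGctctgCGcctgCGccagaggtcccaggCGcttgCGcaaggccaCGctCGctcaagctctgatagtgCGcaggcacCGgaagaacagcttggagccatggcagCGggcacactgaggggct
Dazl: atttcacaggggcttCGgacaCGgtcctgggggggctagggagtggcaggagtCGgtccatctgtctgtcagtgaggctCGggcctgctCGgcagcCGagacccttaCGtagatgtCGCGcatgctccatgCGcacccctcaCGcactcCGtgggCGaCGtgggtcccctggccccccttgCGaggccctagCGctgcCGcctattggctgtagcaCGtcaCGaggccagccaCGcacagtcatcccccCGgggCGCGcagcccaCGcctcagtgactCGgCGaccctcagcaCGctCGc
Sycp1: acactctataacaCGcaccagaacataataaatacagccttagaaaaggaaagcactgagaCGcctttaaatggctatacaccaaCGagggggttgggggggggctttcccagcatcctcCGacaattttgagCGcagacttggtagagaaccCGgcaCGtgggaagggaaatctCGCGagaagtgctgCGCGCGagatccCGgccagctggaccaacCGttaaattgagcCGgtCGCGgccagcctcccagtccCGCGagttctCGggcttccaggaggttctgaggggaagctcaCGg
Slc25a31: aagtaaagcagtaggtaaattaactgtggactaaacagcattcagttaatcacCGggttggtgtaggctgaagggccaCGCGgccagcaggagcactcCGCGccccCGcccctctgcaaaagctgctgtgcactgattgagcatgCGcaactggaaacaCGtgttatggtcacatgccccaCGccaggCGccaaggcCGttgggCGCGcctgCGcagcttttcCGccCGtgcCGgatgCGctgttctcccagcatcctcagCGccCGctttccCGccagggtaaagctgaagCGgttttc
All 8 called genes had more CpGs in this window than the median promoter of the 32817 in the table, which held 7, and the medians were 21.5 for the 8 called and 20 for the 7 uncalled germline genes. The upper quartile of all promoters was 20, and Asz1 (17), Taf7l (17) and Rpl10l (13) were below it. The motif CACGTG, searched on both strands, was in 5 of the 8 and 6 of the 7, against 7.15% of all promoters. The motif TCCCGC, likewise on both strands, was in 4 of the 8 and 3 of the 7, against 20.0% of all promoters. So neither CpG number nor either motif set the called germline genes apart from the uncalled ones in these windows.

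Dazl, which encodes an RNA-binding protein of germ cells, was at 6.50, 7.12 and 6.97 log2 RPM in M KSR3 and at 4.41, 5.19 and 5.49 in M KSR5, a difference of 1.83 (SE 0.27, limma adjusted p = 0.00414). Sycp1, a gene of the synaptonemal complex of meiosis, was at 6.10, 6.47 and 6.38 against 4.22, 5.28 and 4.44 and differed by 1.67 log2. Both were clearly expressed in M KSR5 too, unlike Asz1. Slc25a31, the ADP/ATP carrier gene of the testis, differed by 1.51 log2, Taf7l by 1.26, Stk31 by 1.07, Rpl10l by 1.06 and the RNA helicase gene Ddx4 by 0.55. Ddx4 did not pass without M KSR5 replicate 3 (limma adjusted p = 0.052), and without it Tdrd1 was called lower. Mael, Sycp3, Tdrd1, Hormad1, Mov10l1, Brdt and Stra8 did not pass with all 6 libraries, and their differences ran from -0.53 to 0.86 log2. With each library left out in turn (M KSR3 replicates 1 to 3, then M KSR5 replicates 1 to 3) the number of higher genes was 6, 3, 3, 4, 5 and 7.

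**Figure D3:**
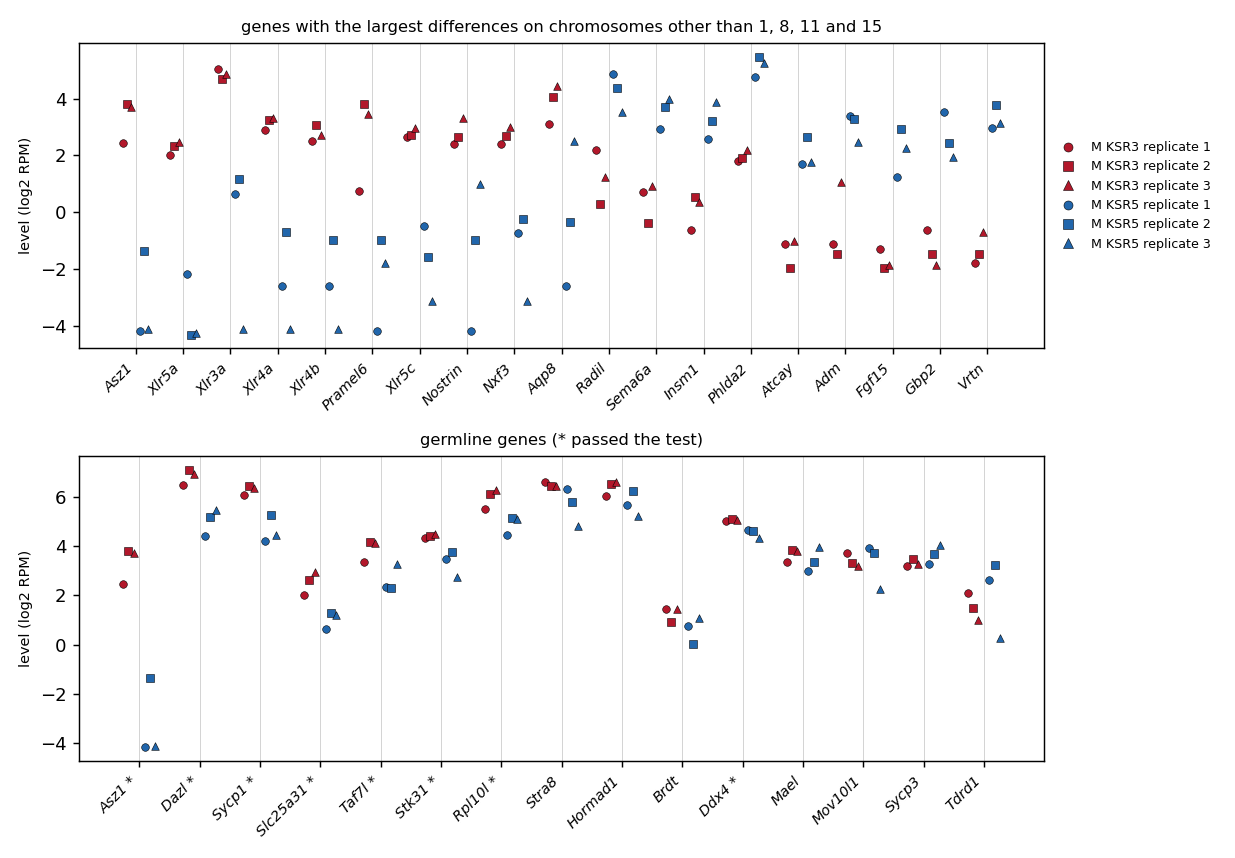
Levels (log2 RPM) of 19 of the genes with the largest differences on chromosomes other than 1, 8, 11 and 15 that met the naming rule (upper panel) and of 15 germline genes (lower panel), with 1 point for each of the 6 libraries. Asz1 and the Xlr genes were near the detection limit in at least 1 M KSR5 library, whereas Dazl and Sycp1 were expressed in both lines.

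Markers of primitive endoderm were higher in M KSR3. Of the 17 markers, 14 were tested, and 9 were higher and none lower, against 7.80% higher among all tested genes, with a median difference of 1.67 log2 against 0.03 over all tested genes. Outside chromosomes 1, 8, 11 and 15, 5 of 9 were higher, against 3.76%, and none lower. The transcription factor gene Gata6, which drives this lineage, was at 5.25, 5.43 and 5.55 log2 RPM in M KSR3 and at 1.97, 2.61 and 3.36 in M KSR5, higher by 2.77 (SE 0.31, limma adjusted p = 0.00185). The receptor gene Pdgfra was at 4.95, 5.00 and 4.95 against 1.75, 2.20 and 2.97, higher by 2.66. In both genes M KSR3 was tight and M KSR5 replicate 3 was the highest of its line. The other transcription factor genes were Sox17 (2.49), Gata4 (2.12) and Sox7 (1.51), and the endocytic adaptor gene Dab2 was higher by 1.53. Genes of the basement membrane that this lineage lays down were higher too, with Lama1 at 2.14, Col4a1 at 2.05 and Col4a2 at 1.80 log2.

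Amn, Cubn, Lamb1, Sparc and Lrp2 did not pass with all 6 libraries, with differences of 0.34 to 1.35 log2. Without M KSR5 replicate 3, 13 of the 14 were higher, all but Lrp2, and with another library left out the number was 6 or 7. The 17 markers summed to 1625, 1611 and 1702 RPM in M KSR3 and to 569, 636 and 1062 RPM in M KSR5. Afp, a marker of visceral endoderm, had no reads in any of the 6 libraries. In such bulk libraries, fewer cells of a type and less RNA of each such cell cannot be told apart. Female MEFs held these 17 markers at 5739 to 6422 RPM, so several are not particular to endoderm, and fibroblast markers were highest in M KSR5 replicate 3. The part of either in the result was not tested.

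Genes of formative and primed pluripotency were lower in M KSR3. All 15 were tested and all lie outside chromosomes 1, 8, 11 and 15, and 11 were lower and none higher, against 6.20% lower among the tested genes of those chromosomes, with a median difference of -1.28 log2. One of the 15, Fgf15, passed the level filter through M KSR5 alone. The same number, 11, was lower without M KSR5 replicate 3, and with each other library left out it was 10, 8, 7 (M KSR3 replicates 1 to 3), 9 and 6 (M KSR5 replicates 1 and 2). Pou3f1, a POU factor gene of the formative state also known as Oct6, was at 3.62, 3.11 and 2.93 log2 RPM in M KSR3 and at 5.07, 6.09 and 5.86 in M KSR5, lower by 2.45 (SE 0.28, limma adjusted p = 0.00204). Otx2, a homeobox gene that starts this transition, was at 4.57, 3.72 and 4.61 against 5.65, 5.29 and 5.58, lower by 1.21. Neither gene overlapped between the lines. Fgf15 (-3.85), the Wnt effector gene Lef1 (-2.82), Sox3 (-2.59), the tight junction gene Cldn6 (-2.01), Sall2 (-1.35), Zic2 (-1.28) and Zic5 (-0.76) were lower as well. The de novo DNA methyltransferase genes Dnmt3b and Dnmt3a were lower by 1.04 and 0.96 log2. Fgf5, Cdh2, Foxd3 and Etv1 did not pass, and Fgf5 had levels of -4.26, -0.04 and 0.08 in M KSR3 and 0.41, 1.09 and 3.06 in M KSR5.

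Core and naive genes moved less together. Of a panel of 12 pluripotency genes that the study chose, 5 were lower in M KSR3 and none higher, against 6.43% lower and 7.80% higher among all tested genes. The 5 were Pou3f1, Otx2, the growth factor gene Fgf4 (-0.79), Utf1 (-0.63) and Dppa4 (-0.42). Since that panel was chosen on these libraries among others, its direction is not independent evidence. Pou5f1, which encodes OCT4, was at 9.5, 9.92 and 9.89 log2 RPM in M KSR3 and at 9.95, 10.05 and 10.42 in M KSR5, and the homeobox gene Nanog was at 7.98, 8.61 and 8.71 against 8.38, 7.75 and 8.68. Neither passed the test, with differences of -0.37 (SE 0.16) and 0.16 (SE 0.25). Of 18 naive genes, Tbx3 (1.70), Tfcp2l1 (1.42) and Nr5a2 (1.28) were higher, the last 2 of them on chromosome 1, against the same 7.80%. Once each chromosome was centred on its own median, 2 naive genes were higher and 3 lower. With each of 10 position groups of a chromosome centred, none was higher and 2 were lower. Dppa3, a gene of naive cells and of germ cells, was lower by 2.41 log2, at 2.60, 2.17 and 2.52 against 5.26, 4.59 and 4.65. The median of the naive genes was 0.01 log2, and 7 were higher and 1 lower without M KSR5 replicate 3. With another library left out, the higher naive genes numbered 2 (M KSR3 replicate 1) or 1, and the lower genes of the panel numbered 4, 2, 2, 4 and 4 (M KSR3 replicates 1 to 3, M KSR5 replicates 1 and 2). Without M KSR5 replicate 3 the panel had 5 lower genes and 1 higher.

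The Nodal pathway, a TGF-beta signal of the epiblast that keeps formative and primed cells pluripotent, held both directions. Among 14 tested genes 6 were lower in M KSR3 and 1 higher, against 6.43% and 7.80% of all tested genes, with a median of -0.45 log2. Outside chromosomes 1, 8, 11 and 15, 4 of 10 were lower and none higher. The ligand gene Nodal was at 5.52, 5.65 and 5.75 log2 RPM in M KSR3 and at 6.38, 6.38 and 6.42 in M KSR5, lower by 0.75 (SE 0.12, limma adjusted p = 0.00641). The 2 secreted inhibitors, themselves known targets of the pathway, diverged. Lefty1 was lower by 1.57 log2, at 4.75, 4.33 and 4.81 against 6.36, 6.44 and 5.81, whereas Lefty2 was higher by 1.12, at 7.59, 7.18 and 7.44 against 5.92, 6.23 and 6.70. Both are on chromosome 1, and Lefty2 did not pass once each chromosome was centred on its own median. Among the signal's effectors, Foxh1 (-1.04) and Smad3 (-0.85) were lower, as was the repressor gene Skil (-1.27). Foxh1 is on chromosome 15, where the median gene was also lower in M KSR3. Its difference ran from -1.28 to -0.56 over the settings run. The receptor genes Acvr1b, Acvr2a and Acvr2b, the co-receptor gene Tdgf1 and Smad2 had differences of -0.29 to 0.54 and did not pass. With each library left out in turn the lower genes numbered 6, 3, 5 (M KSR3 replicates 1 to 3), 4, 3 and 6 (M KSR5 replicates 1 to 3), and the last of these also gave 2 higher genes.

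**Figure D4:**
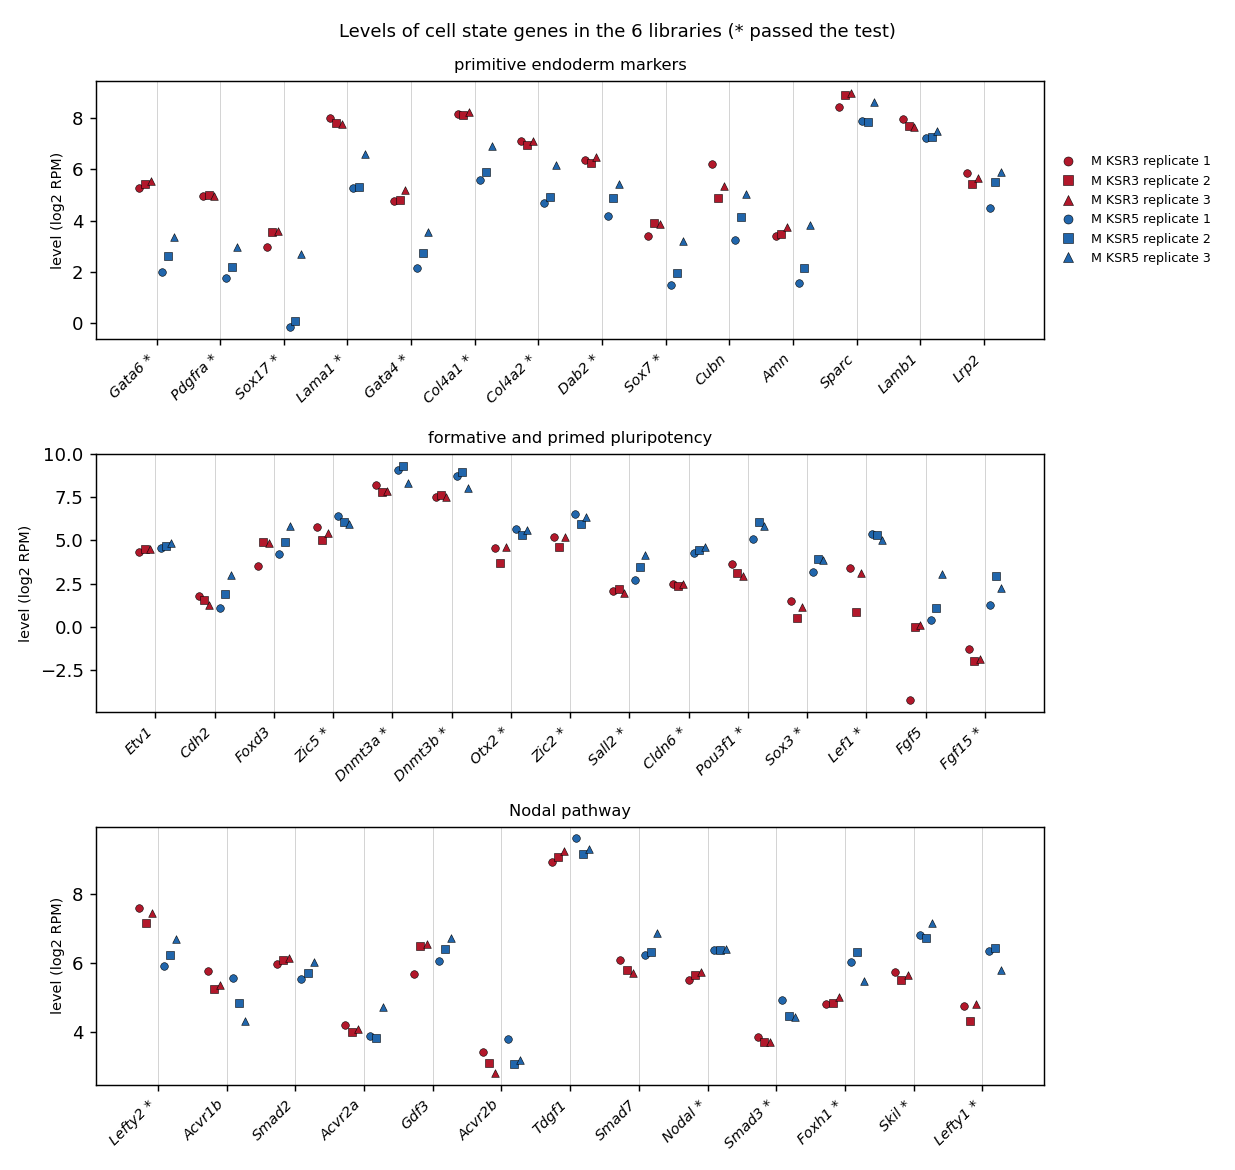
Levels (log2 RPM) of 14 primitive endoderm markers, 15 genes of formative and primed pluripotency and 13 genes of the Nodal pathway in the 6 libraries, ordered by their difference, with an asterisk where the gene passed the test. Endoderm markers such as Gata6 were higher in M KSR3 and formative genes such as Pou3f1 lower, and Lefty2 and Lefty1 stood at opposite ends of the Nodal panel.

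Metabolic and structural lists gave smaller counts. Of 19 glycolysis genes, 5 were lower in M KSR3 and none higher, against 6.43% lower among all tested genes, with a median of -0.48 log2. Tpi1, the triosephosphate isomerase gene, was at 7.23, 6.51 and 7.41 log2 RPM against 8.92, 8.22 and 7.98, lower by 1.32 (SE 0.28, limma adjusted p = 0.0158), and the enolase gene Eno1 (-1.16), Pgk1 (-0.80), Aldoa (-0.73) and Pfkm (-0.57) were the others. Pfkm is on chromosome 15 and did not pass once each chromosome was centred, and outside chromosomes 1, 8, 11 and 15 the count was 4 of 16. Without M KSR5 replicate 3 the number was 10, and with the other libraries left out in turn it was 6, 1, 2 (M KSR3 replicates 1 to 3), 2 and 2. Of 12 hypoxia-responsive genes, Adm (-3.55), Egln3 (-2.27), Bnip3 (-2.13) and Ddit4 (-1.14) were lower and P4ha2, on chromosome 11, was higher (1.39), and the lower ones numbered 5, 2, 2, 2, 1 and 6 as libraries were left out in the same order. Of 9 contractile genes and targets of the coactivator YAP, Myl9 (-2.32), Cnn1 (-2.28), Cnn2 (-2.07), Ctgf (-1.95) and Tpm1 (-0.77) were lower. The same 6.43% is the background of the lower hypoxia and contractile genes. In all of these 5 the highest level was that of M KSR5 replicate 3, the library with the highest fibroblast markers, and they passed without it too. Their number was 3 or 2 without a single M KSR3 library and 2 without M KSR5 replicate 2, and the part of the fibroblast markers was not tested.

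Imprinted genes differed both in level and in the parental copy they were read from. Of 37 tested, 11 were lower and 2 higher in M KSR3, against 6.43% and 7.80% of all tested genes. Their median was -0.05 log2, and 0.12 without M KSR5 replicate 3. Slc22a18, 1 of the 11 lower genes, passed the level filter through M KSR5 alone and had to differ. Lower genes on the distal part of chromosome 7, in the H19 and Kcnq1ot1 domains, were the placental growth regulator gene Phlda2 (-3.19), Slc22a18 (-2.59), the growth factor gene Igf2 (-2.52), the cell cycle inhibitor gene Cdkn1c (-2.20) and the noncoding RNA H19 (-1.62). Igf2 was at 1.39, 2.50 and 1.61 log2 RPM in M KSR3 and at 4.33, 4.30 and 4.43 in M KSR5 (SE 0.29, limma adjusted p = 0.00214). H19 was at 6.56, 5.81 and 5.80 against 7.63, 7.35 and 8.06. Igf2 and H19, which normally come from opposite parental copies, were thus both lower in M KSR3. In M KSR5 Igf2 was 82.1%, 94.4% and 56.5% maternal on 18 to 28 SNP reads, against 0.007% in female MEFs. M KSR3 had 0, 4 and 2 such reads, too few for a share. Grb10 (-2.62), the zinc finger gene Peg3 (-1.18), Sgce (-1.07), Snrpn (-1.06), Snurf (-1.0) and Peg10 (-0.86) were lower as well. Meg3 (0.94) and Zdbf2 (0.88), the latter on chromosome 1, were higher. Without M KSR5 replicate 3 the counts were 5 higher and 11 lower.

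Of the 37, 28 had SNP reads enough for a share in both lines (at least 5 in at least 2 libraries of each), and in 12 of them (42.9%) the shares of the lines did not overlap. On the autosomes other than 1, 8, 11 and 15 that was so for 7 of 22 imprinted genes (31.8%) and for 1180 of 8130 other tested genes (14.5%). Of the imprinted genes, 17 were chosen by the study with these libraries in view. Meg3, a noncoding RNA read from the maternal copy in female MEFs (99.99%), was 18.8%, 22.1% and 16.5% maternal in M KSR3 and 90.7%, 93.3% and 79.5% in M KSR5. In M KSR3 the reads of Meg3 thus came mostly from the paternal copy. Grb10, also maternal in MEFs, was 35.7%, 42.9% and 50.0% maternal in M KSR3, on 8 to 14 reads, and 95.9%, 96.8% and 73.8% in M KSR5, on 49 to 65. The Wilson 95% interval of its M KSR3 replicate 3 ran from 21.5% to 78.5%, so the M KSR3 share is imprecise.

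Mest, paternal in MEFs (0.04% maternal), was 43.8%, 49.1% and 48.5% maternal in M KSR3 and 3.41%, 4.19% and 25.8% in M KSR5. M KSR5 kept a paternal Mest in replicates 1 and 2, and replicate 3 lay between them and M KSR3. Peg3, with no maternal reads in MEFs, was 76.4% ± 3.22 maternal in M KSR3 against 50.6% ± 7.73 for M KSR5 (SD, n = 3 each), and Impact was 38.9%, 37.8% and 37.8% against 21.3%, 24.5% and 28.6%. Zdbf2 on chromosome 1 (65.9% ± 1.02 against 47.9% ± 1.09, SD, n = 3 each) and Slc38a4 on chromosome 15 (45.8% ± 1.08 against 55.8% ± 4.21) differed in the direction of their chromosomes. For each gene with 3 shares in each line that did not overlap, the exact permutation test again gave its smallest p, 0.1.

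Of the 12 genes whose shares did not overlap, the others were Blcap, Ndn, Dlk1, Commd1 on chromosome 11 and Trappc9 on chromosome 15. Blcap, Commd1 and Trappc9 were read from both copies in female MEFs too, at 51.4%, 52.6% and 50.1% maternal. Dlk1, paternal in MEFs, was 47.8%, 6.45% and 34.2% maternal in M KSR3 and 76.2% and 73.3% in the 2 M KSR5 libraries with reads enough, on 15 to 38 reads each. Blcap had 13 to 37 reads in a library and Ndn at most 10. Ndn had a share in only 2 libraries of each line, and the permutation test gave p = 0.33. In the genes that follow the lines overlapped. H19, maternal in MEFs, was 55.8%, 64.0% and 68.4% maternal in M KSR3 and 35.7%, 33.0% and 72.5% in M KSR5, where replicate 3 alone was above M KSR3. Snrpn was paternal in both lines, at 6.67%, 4.76% and 3.48% maternal in M KSR3 and 5.65%, 4.36% and 22.1% in M KSR5. In M KSR5, replicate 3 was thus nearer to an equal share than the others of its line in Mest, Snrpn and Meg3. Igf2r, maternal in MEFs, was near an equal share in both lines (49% ± 1.59 and 47.9% ± 6.20, SD, n = 3 each). Intervals cover counting error only.

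**Figure D5:**
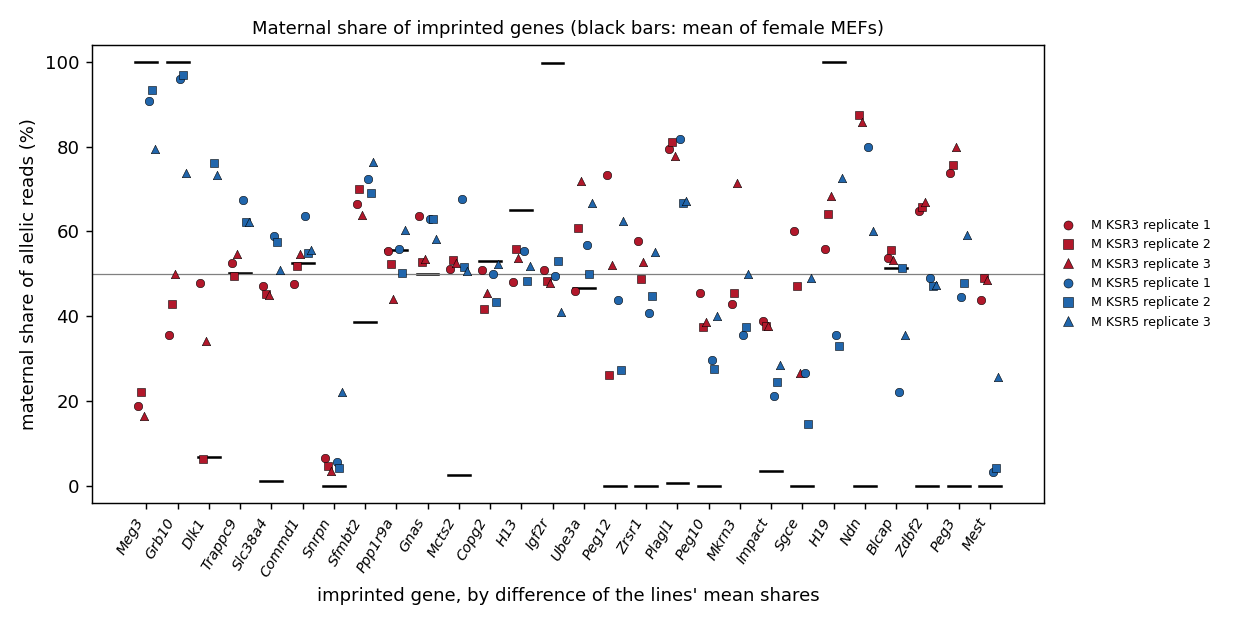
Maternal share of SNP reads (%) of 28 imprinted genes in the 6 libraries, ordered by the difference between the lines, with black bars for the mean of the female MEF libraries where they had reads. Meg3 was the gene with the largest difference towards M KSR5 and Mest that with the largest towards M KSR3.

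Both lines are male and expressed the 4 Y-linked genes examined, but not at equal levels. Eif2s3y, a translation factor gene, was at 3.71, 3.75 and 3.87 log2 RPM in M KSR3 and at 6.08, 6.16 and 6.03 in M KSR5, lower by 2.31 (SE 0.14, limma adjusted p = 0.000375). Kdm5d, a histone demethylase gene, went the other way, at 2.85, 2.84 and 2.08 against 1.38, 0.09 and -1.79, higher by 2.70 (SE 0.69, limma adjusted p = 0.0317). The other 2, Ddx3y and Uty, overlapped between the lines, with differences of -0.11 and 0.04 log2. The Y-linked genes thus did not shift as a block. X-linked SNP reads were 99.6% to 99.9% maternal in all 6 libraries. Of the 100, 206 and 166 X reads assigned to the paternal genome in M KSR3, Rhox5 gave 78, 173 and 145. In M KSR5 Rhox5 gave 39, 49 and 37 of 77, 88 and 65, and it had 0 maternal reads.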

How the data were processed

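RNA-seq of 3 biological replicates of each iPSC line was analysed. The authors trimmed reads with Trim Galore 0.6.1, aligned them to GRCm38 with HISAT2 2.1.0 and quantified genes in SeqMonk. The deposited values are log2 RPM, without length correction, with a gene of 0 reads held at 0.9 read, in total and for each parental genome. Reads were recovered from these steps for depths and shares. The 6 libraries were fitted with limma 3.58.1 (R 4.3.3, trended variance) on the deposited log2 values, as M KSR3 minus M KSR5. Tables were summarised in Python 3.11.15. Maternal shares used genome 1 (BL6) reads. Genes were named if they passed with and without M KSR5 replicate 3, did not overlap, were at log2 of 2 or more in the higher line and ranked in the first 10 (other chromosomes) or 2 (chromosomes 1, 8, 11 and 15) of a direction, or if they were called members of a list. The lines, chromosomes and lists were chosen with earlier results of these data known. The authors' own fold tests were not used. A few genes that met the naming rule are not reported here. Scripts were tested on simulated data. The read length is given differently by the labels and the methods and was not used.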

Additional observations from a re-analysis of the deposited data

How the results depend on the processing

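No called gene named here changed sign under the alternatives run. The median of the imprinted genes did, from -0.05 to 0.12 without M KSR5 replicate 3, and the split of all calls went from 1015 higher and 836 lower to 460 and 774 with each chromosome centred. The count of 1851 called genes became 1114 with no filter on low values, 1006 with each of 10 position groups of a chromosome centred (chosen after seeing the data), 303 when all 12 KSR-iPSC libraries were fitted, 623 when all 18 were fitted and 532 to 2837 with a library left out. On chromosomes 1, 8, 11 and 15 the count of 858 became 525, 269, 134 and 308 under the first 4 of these, 370 with each chromosome centred and 249 to 1157 with a library left out, and on the others the count of 993 became 589 (no filter), 169 (12 libraries), 315 (18 libraries) and 283 to 1680 (a library left out). The 13 imprinted calls became 6 and 7 in the fits of 12 and 18 libraries. The chromosome 1 median of 0.54 became 0.50 on the log2(RPM + 1) scale. That of chromosome 11, 0.30, became 0.27 on that scale, 0.296 over genes above log2 of 2 in all libraries, 0.57 over its position groups 5 to 9 (chosen after seeing the data) and 0.291 to 0.304 with a library left out, and its share difference of 10.5 percentage points became 11.4 as a median over genes and 16.5 over groups 5 to 9. The cause of these moves was not tested.

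Whether the replicate numbers pair the samples was not settled. Deviations of same-numbered libraries correlated at 0.39, -0.07 and 0.19 for replicates 1, 2 and 3. The highest correlation with a library of another number was 0.06, 0.30 and -0.006 in the same order. With a replicate block 2912 genes were called, 1637 of them on the other chromosomes. The fits with 12 and 18 libraries pool the spread of other lines and cells. All-gene counts moved less under log2(RPM + 1) (1933), a filter at log2 above 2 (1646), limma-voom on recovered reads (1907), TMM scaling (1849), scaling to the other autosomes (2103) and centring each chromosome (1234). Of the alternatives for single named genes, 1873 stayed on the same side of the threshold, 450 lost the call and 10 gained it. With 3 libraries of 1 clone per line, a difference between lines cannot be told apart from one between clones.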

Other observations

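Lists that the comparisons above did not use gave these counts, against 14.2% of all tested genes. Of 18 targets of the ERK pathway, Etv4 was higher in M KSR3 (0.81 log2, on chromosome 11) and Ier3 (-2.21), Spred1 (-0.93) and Etv5 (-0.62) were lower. Of 11 targets of beta-catenin, the Wnt antagonist gene Dkk1 was higher (3.90 log2), at 1.45, 2.04 and 2.26 log2 RPM against -2.59, -4.16 and 0.80, and Lef1 (-2.82) and Tcf7 (-0.96) were lower. Of 8 tested trophoblast markers, the keratin genes Krt7 (-2.74) and Krt18 (-1.56), both on chromosome 15, were lower, and of 7 neural markers Sox1 (-1.20) and Nes (-1.31) were lower. Of 6 interferon-responsive genes, 2 were higher, among them Xaf1 (2.52, on chromosome 11), and Oasl2 (-2.62) was lower. Among the 6, 1 was above 0 (log2 RPM) in M KSR3 alone and 1 in M KSR5 alone. These 2 passed the level filter through a single line and had to differ. Of the 3 outside chromosomes 1, 8, 11 and 15, none was higher and 1 was lower. With each position group of a chromosome centred, none of the 6 was higher and 2 were lower. Of 13 genes of the DNA methylation machinery, Dnmt3a, Dnmt3b and Dppa3 were lower, and without M KSR5 replicate 3 the counts were 1 higher and 5 lower.

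Of 19 cholesterol synthesis genes, Sc5d (0.60) was higher and 2 were lower, among them Sqle (-0.42). Single genes passed among 14 ATF4 and stress genes (Chac1, -0.96), 10 genes of the PRC2 complex (Suz12, 0.88, on chromosome 11) and 12 mitochondrially encoded genes (mt-Nd5, 0.49), and among 15 cell cycle genes Ccnd3 (0.45) was higher and Cdkn1c (-2.20) lower. By limma, none of 16 p53 targets, 8 fibroblast markers, 5 primitive streak markers, 3 metallothionein genes or the only tested gene of the cleavage stage (Zscan4d) passed, nor by limma-voom on recovered reads. Unadjusted p was below 0.05 for 2, 2, 1, 0 and 0 of them, and without M KSR5 replicate 3 there were 4 p53 targets, 1 primitive streak marker and 1 metallothionein gene higher and 1 p53 target lower.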
